A study of Rattus norvegicus with 4 samples.

Results

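Mitochondrial ribosomal proteins were followed in cultured ventricular myocytes of newborn rats, primary heart muscle cells kept in a dish. They were chosen by name, as every gene in the deposited table whose symbol is Mrpl or Mrps followed by a number, which gave 69 of 14137 gene identifiers, 40 of the large and 29 of the small subunit by name. The cultures had received lentivirus carrying a short hairpin RNA against Crat (2 libraries, labelled KO, although the design describes a knockdown) or a control short hairpin RNA (2 libraries, labelled WT), and RNA was taken at day 5 in both groups. All 4 libraries therefore come from cells given lentivirus. Crat encodes carnitine acetyltransferase, a mitochondrial enzyme that buffers acetyl-CoA, and the study's title ties its loss in heart muscle cells to DCM. The rat strain, the number of hairpin sequences and whether the 2 libraries within each group are separate cultures are not given in the sources used here, so p-values measure the spread between these libraries, which may be technical.

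The mitochondrial ribosome sits in the matrix, held at the inner membrane, and translates the few messages of mitochondrial DNA, all of which encode subunits of the respiratory chain and ATP synthase. Its ribosomal RNA comes from mitochondrial DNA, whereas every protein of it is encoded in the nucleus, made in the cytosol and imported. Heart muscle depends on it heavily, and in humans inherited defects of several of these proteins, MRPL3 and MRPL44 among them, cause cardiomyopathy of infancy.

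Values are in RPM, reads scaled to the same total in every library, and are not divided by gene length, so levels are compared between libraries and not between genes. Crat itself stood at 24.9 and 19.7 RPM in the Crat hairpin libraries, against 148 and 156 RPM in the control hairpin libraries, a log2 fold change of -2.72 ± 0.19 (SE; limma, Benjamini-Hochberg adjusted p = 7.3e-06). Depth was uneven, at 321516 and 1622998 reads in the Crat hairpin libraries and 23680064 and 1321735 reads in the control libraries. Of 12 defining cardiomyocyte markers 11 were detected, as were all 9 fibroblast and all 7 smooth muscle and pericyte markers. Detection alone therefore does not single out cardiomyocytes. The cardiomyocyte markers summed to 13377 and 13783 RPM in the Crat hairpin libraries, against 31261 and 31835 in the controls, with 8 of 11 lower and 1 higher by limma. Fibroblast markers summed to 16805 and 17143 RPM with the Crat hairpin and 22932 and 23922 RPM with the control hairpin (5 of 9 lower, 2 higher), smooth muscle and pericyte markers to 1863 and 1786 RPM with the Crat hairpin and 5164 and 5271 RPM with the control hairpin (5 of 7 lower, 1 higher). Endothelial markers summed to 68.4 and 60.4 RPM with the Crat hairpin and 52.9 and 62.8 RPM with the control hairpin. Of 5 tested 1 was lower and 1 higher, and Vwf had no read in either Crat hairpin library. Leukocyte markers summed to 43.5 and 45.0 RPM with the Crat hairpin and 39.7 and 39.3 RPM with the control hairpin (none of 6 past the test). Schwann, epicardial and red cell markers summed to 68.4 and 75.2 RPM with the Crat hairpin and 38.2 and 40.1 RPM with the control hairpin (1 of 4 higher). The part of these shifts in the values below was not tested. In whole cultures fewer cells of a type and less RNA per cell cannot be told apart.

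Scaled to total reads, the transcripts for mitochondrial ribosomal proteins summed to 2051 ± 10.8 RPM with the Crat hairpin and 2168 ± 29.5 RPM with the control hairpin (SD, n = 2 each). Sums were taken in this scaling only, and the size of the difference depends on it. The members' median log2 fold change was -0.15 as deposited and -0.35 under TMM scaling. The 69 members summed to 2059 and 2044 RPM in the Crat hairpin libraries, against 2189 and 2147 in the controls, a ratio of 0.946. The large subunit summed to 1334 and 1275 RPM in the Crat hairpin libraries and to 1353 and 1351 in the controls. Small-subunit transcripts summed to 725 and 769 RPM with the Crat hairpin and 835 and 797 RPM with the control hairpin. In this scaling both sums were lower in each Crat hairpin library than in either control. The mean differences were -3.51% for the large and -8.49% for the small subunit. These sums go by gene name. With Mrps18a and Mrps30, whose products sit in the large subunit, counted there and Mrps36 left out, the differences were -5.05% for the large subunit (42 members) and -6.24% for the small subunit (26 members), a grouping made after the values were seen. The 13 protein-coding genes of mitochondrial DNA, whose messages this ribosome translates, summed to 36362 and 36195 RPM in the Crat hairpin libraries, against 94723 and 90799 in the controls, a ratio of 0.391.

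**Figure D1:**
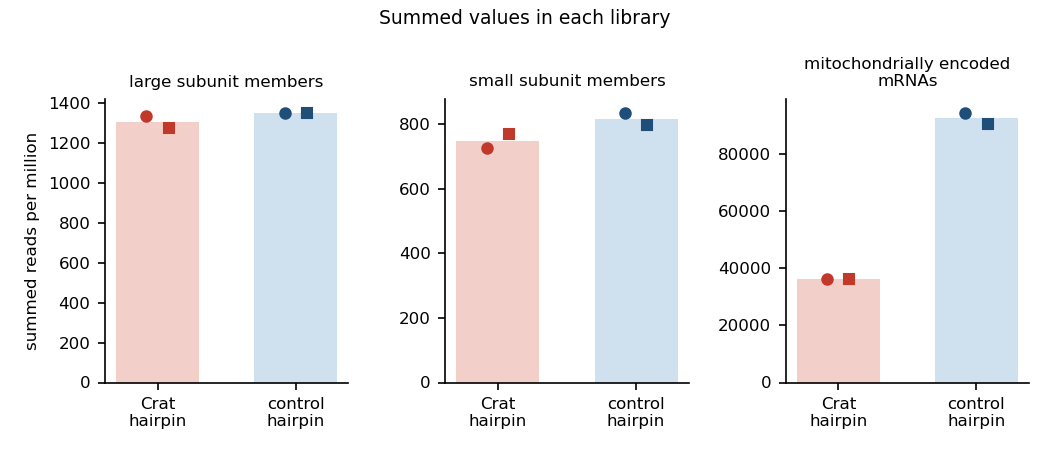
Summed RPM of the 40 Mrpl members (large subunit by name), the 29 Mrps members (small subunit by name) and the mRNAs of the 13 mitochondrially encoded genes. Bars are means of 2 libraries and points are libraries (circle replicate 1, square replicate 2), with Crat hairpin left of control hairpin. Scaled to total reads, the sums had a ratio of 0.965 for the large and 0.915 for the small subunit, against 0.391 for the mitochondrially encoded mRNAs.

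Gene by gene, 1 of the 69 members was lower and 0 were higher at an adjusted p under 0.05 in limma, where 6.36% of the 12949 genes tested were lower and 12.6% were higher. All 69 members passed the filter on low values, a mean of at least 1 RPM. Before adjustment 5 members were lower and 4 higher at p under 0.05, where 1348 and 2750 of the 12949 genes tested were. The members' median log2 fold change was -0.15, and 41 of 69 were negative, while the median over all genes tested was 0.15 and 40.8% were negative. Under TMM scaling the members' median was -0.35 with 53 of 69 negative, beside -0.04 and 52.9% over all genes, and in edgeR it was -0.29 with 54 negative, beside -0.01 and 50.6%. As deposited, the large subunit by name had a median of -0.07 and the small subunit one of -0.39, and by place in the ribosome the medians were -0.13 and -0.29. Both Crat hairpin libraries lay below both controls for 23 members, or 33.3%, and above both for 11, or 15.9%, where 21.7% and 39.1% of all genes tested did so.

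The count depended on the test. With edgeR's quasi-likelihood test on the recovered reads, 14 members were lower and 2 higher, where 15.9% of genes were lower and 13.7% higher. Limma with voom weights, which follow the depth, gave 13 and 2, beside 15.2% and 16.5% of all genes. DESeq2 gave 0 and 0, beside 6.7% and 5.78%. The adjusted p-values in the authors' deposited table also gave 0, beside 6.12% lower and 5.36% higher. At an unadjusted p under 0.05 DESeq2 held 3 members, beside 2524 of the 12949 genes tested. The deposited values held 3, beside 2458. With limma, 7 members were lower and 2 higher without Crat hairpin replicate 1, the shallowest library, where 10.2% and 19.8% of genes were. Without Crat hairpin replicate 2 the counts were 19 and 9, beside 20.4% and 28.3% of genes, and without control replicate 1 or control replicate 2 they were 0 and 0. The 2 higher members in edgeR, in voom and without Crat hairpin replicate 1 were Mrpl2 and Mrps2. In both fits without a control library, smaller shares of all genes passed as well, lower and higher, than with every library kept. The counts of 0 there therefore do not set the members apart from other genes. Under TMM scaling, which moved the median of all genes to -0.04, 5 members were lower and 0 higher, beside 9.87% and 7.78% of genes.

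Reads were fewest in Crat hairpin replicate 1. It held 662 reads over all 69 members, with a median of 8 reads a member, against medians of 44, 724 and 40 in Crat hairpin replicate 2 and control replicates 1 and 2. The median absolute log2 difference between replicates was 0.43 for the Crat hairpin pair and 0.18 for the control pair, and the median absolute difference between groups was 0.35. The limma standard error had a median of 0.27 on the log2 scale and ran from 0.16 to 1.11. For 32 of the 69 members the 95% interval of the log2 fold change lay within 1 unit of 0, and the others reached past it, so that changes of that size were not bounded at this depth. RefSeq names pseudogenes for 23 members and overlapping genes for 18, among which reads may have been split or shared.

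**Figure D2:**
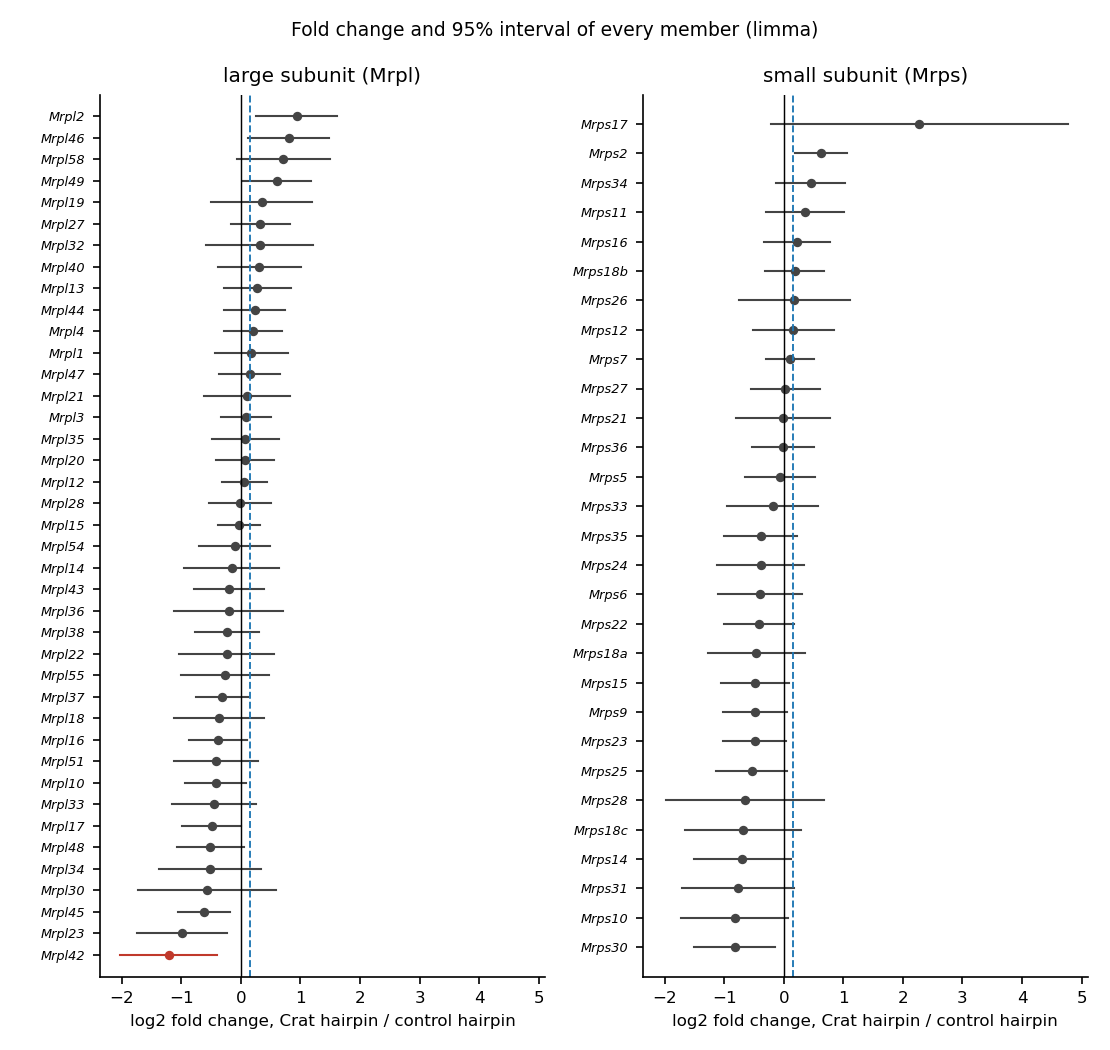
Log2 fold change of each of the 40 Mrpl and 29 Mrps members, Crat hairpin over control hairpin, on the log2(value + 1) scale, with 95% intervals from limma. Red marks the member past the threshold, Mrpl42 at -1.21, and the dashed line is the median of all genes tested, 0.15. Most intervals cross 0, and Mrps17 has the widest.

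Mrpl42 was the member past the threshold. It encodes a large-subunit protein with no bacterial counterpart. It stood at 9.33 and 19.1 RPM in the Crat hairpin libraries, against 28.8 and 36.3 in the controls. The 2 groups did not overlap, but Crat hairpin replicate 1 rested on 3 reads. The log2 fold change was -1.21 ± 0.36 (SE, 2 libraries against 2; limma adjusted p = 0.0449). Mrpl42 had a log2 fold change of -0.73 without Crat hairpin replicate 1 and of -1.69 without Crat hairpin replicate 2. It did not pass without control replicate 1 or 2 (limma adjusted p = 0.333 and 0.370), without a filter on low values (0.0837), without a variance trend (0.179), in DESeq2 (0.124) or in the authors' deposited table (0.157). RefSeq lists 2 pseudogenes and 1 further gene named after Mrpl42, so how its reads were shared out is uncertain. Its promoter is shown because it is that of the one member called. The sequence runs from 250 bases before to 50 bases after the RefSeq start, GRCr8 chr7:32028473-32028772, minus strand, with a match to AAGATGGCG, the core of the YY1 motif, in capitals.
Mrpl42: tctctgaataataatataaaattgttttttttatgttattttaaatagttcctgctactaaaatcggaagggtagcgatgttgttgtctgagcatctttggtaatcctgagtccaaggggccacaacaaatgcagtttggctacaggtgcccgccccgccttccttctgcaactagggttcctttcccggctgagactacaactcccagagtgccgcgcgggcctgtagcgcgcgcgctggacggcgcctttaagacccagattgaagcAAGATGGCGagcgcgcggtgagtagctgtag

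Of the proteins around the tunnel through which new chains leave the large subunit, Mrpl45, Mrpl23, Mrpl17, Mrpl22 and Mrpl47 did not pass in DESeq2, or in limma on the values as deposited. Under TMM scaling Mrpl45, Mrpl23 and Mrpl17 were among the 5 members lower in limma (adjusted p = 0.0151, 0.0374 and 0.0497), beside 9.87% of all genes. Mrpl45, which ties the tunnel exit to the inner membrane, had 37.3 and 41.9 RPM in the Crat hairpin libraries, against 57.9 and 65.1 in the controls. The groups were apart, and the log2 fold change of Mrpl45 was -0.62 ± 0.19 (SE; limma adjusted p = 0.0511; edgeR adjusted p = 5.9e-04). Mrpl23, a protein at the tunnel exit, had 9.33 and 14.2 RPM with the Crat hairpin and 24.3 and 23.5 RPM with the control hairpin, also apart, with a log2 fold change of -0.99 ± 0.33 (limma adjusted p = 0.0699; edgeR adjusted p = 0.00199). Mrpl17, another exit protein, had 80.9 and 50.5 RPM with the Crat hairpin and 87.4 and 93.1 RPM with the control hairpin, with Crat hairpin replicate 1 close to the controls. Its log2 fold change was -0.49 ± 0.22 (limma adjusted p = 0.157), and -0.86 in edgeR (adjusted p = 1.31e-06). For Mrpl22, which lines the tunnel, the values overlapped, 28.0 and 14.2 RPM with the Crat hairpin and 21.2 and 26.5 RPM with the control hairpin. Mrpl47, whose bacterial counterpart also sits at the exit, had 37.3 and 32.0 RPM with the Crat hairpin and 31.3 and 31.0 RPM with the control hairpin, a log2 fold change of 0.15 with a 95% interval from -0.37 to 0.66. Mrpl45 and Mrpl23 each have 1 RefSeq pseudogene and Mrpl17 and Mrpl47 have 2, so their values share the uncertainty given for Mrpl42. The Mrpl45 promoter (GRCr8 chr10:82804789-82805088, plus strand) is shown because it holds 2 separate matches to the core motif of NRF-1 (GCGC, an A, any base N, and GCGC again), in capitals.
Mrpl45: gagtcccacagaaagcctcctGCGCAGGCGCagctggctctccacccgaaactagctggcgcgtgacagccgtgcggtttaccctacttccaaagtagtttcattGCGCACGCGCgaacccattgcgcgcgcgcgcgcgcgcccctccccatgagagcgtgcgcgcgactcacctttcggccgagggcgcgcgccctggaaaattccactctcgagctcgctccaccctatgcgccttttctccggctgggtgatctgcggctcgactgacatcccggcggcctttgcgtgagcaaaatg

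The stalk that recruits translation factors is formed by Mrpl10 and Mrpl12 among others, and neither of these passed in limma. Mrpl12, which has also been described as a partner of the mitochondrial RNA polymerase, had 65.3 and 61.0 RPM in the Crat hairpin libraries and 62.1 and 59.0 in the controls. The 95% interval of its log2 fold change of 0.06 ran from -0.32 to 0.44. Mrpl10, which anchors the stalk, had 28.0 and 30.8 RPM with the Crat hairpin and 36.6 and 43.1 RPM with the control hairpin, with no overlap and a log2 fold change of -0.42 ± 0.23 (limma adjusted p = 0.243). Mrpl54, a further protein of the large subunit, had 52.9 and 31.4 RPM with the Crat hairpin and 46.4 and 41.6 RPM with the control hairpin. These values overlapped, with Crat hairpin replicate 1 the highest, and the limma log2 fold change was -0.10 ± 0.26 (adjusted p = 0.822), but Mrpl54 was lower in edgeR (-0.57, adjusted p = 0.0203) and in voom (-0.61, adjusted p = 0.0115).

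Around the site of peptide bond formation Mrpl2 and Mrpl3 bind ribosomal RNA. Mrpl2 had 24.9 and 32.0 RPM in the Crat hairpin libraries, against 15.8 and 12.9 in the controls, with both Crat hairpin libraries above both controls. Its log2 fold change of 0.94 ± 0.30 missed the limma threshold (adjusted p = 0.0583) and passed in edgeR at 0.78 (adjusted p = 0.0113). Mrpl3 had 52.9 and 53.6 RPM with the Crat hairpin and 54.5 and 46.2 RPM with the control hairpin, a log2 fold change of 0.08 with an interval from -0.34 to 0.51. Mrpl44, which carries a fold related to RNase III, had 34.2 and 36.4 RPM with the Crat hairpin and 29.6 and 30.3 RPM with the control hairpin, a log2 fold change of 0.23 with an interval from -0.28 to 0.74. Neither of these counterparts of human cardiomyopathy genes passed in limma, voom, edgeR or DESeq2. RefSeq lists 1 pseudogene of Mrpl2.

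Among other large-subunit members with many reads, Mrpl15 had 68.4 and 76.4 RPM in the Crat hairpin libraries and 72.8 and 74.9 in the controls, with the narrowest standard error, 0.16. Mrpl37 had 43.5 and 54.8 RPM with the Crat hairpin and 64.4 and 57.5 RPM with the control hairpin, a log2 fold change of -0.31 ± 0.20 (limma adjusted p = 0.317; edgeR adjusted p = 0.0264). Mrpl58, a peptidyl-tRNA hydrolase built into the large subunit that frees chains from stalled ribosomes, had 43.5 and 22.8 RPM with the Crat hairpin and 22.3 and 15.9 RPM with the control hairpin. The lower Crat hairpin value nearly met the higher control one, and the log2 fold change was 0.72 ± 0.35 (limma adjusted p = 0.196).

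**Figure D3:**
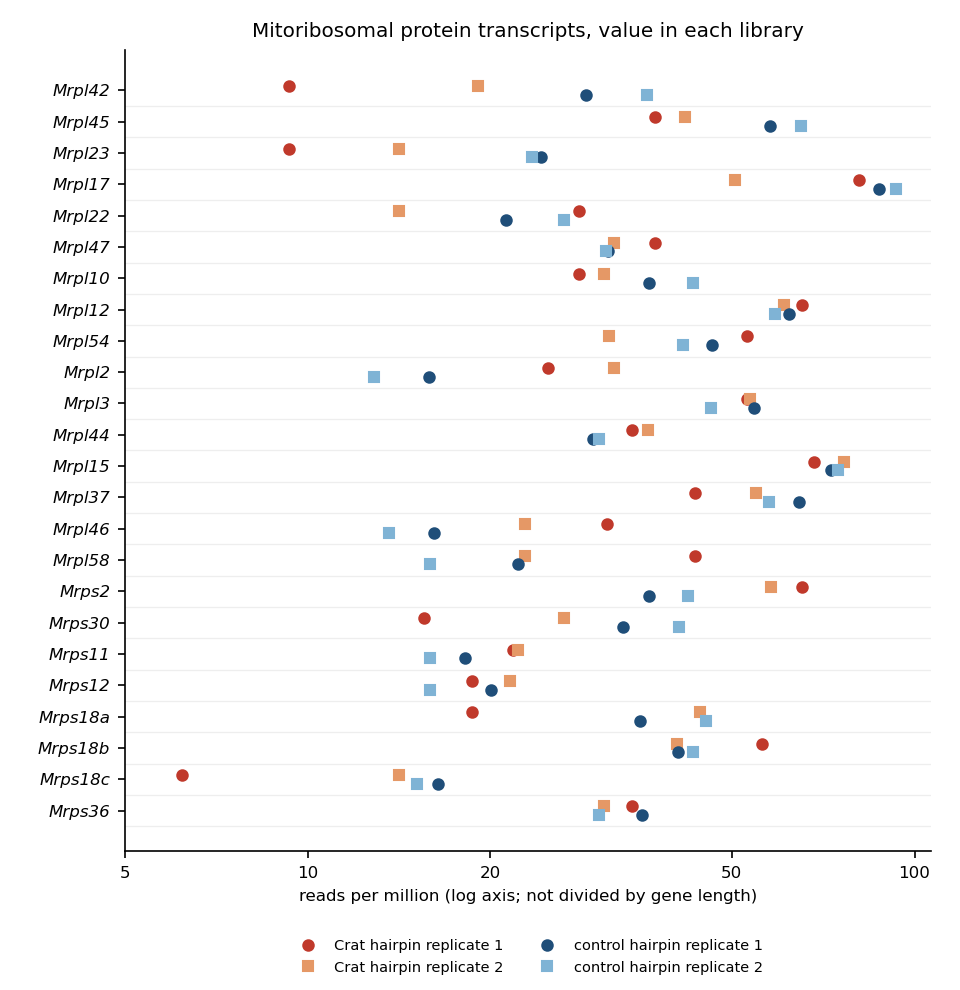
RPM values of 24 members in each library on a log axis, Crat hairpin points above control hairpin points in each row. Mrpl42, Mrpl45 and Mrpl23 have both Crat hairpin points left of both controls, Mrpl2 and Mrps2 have them to the right, and Mrpl12, Mrpl3 and Mrps36 overlap.

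Of the 29 members named Mrps, none passed in limma on the values as deposited (2 at an unadjusted p under 0.05, beside 4098 of the 12949 genes tested). EdgeR gave 7 lower and 1 higher, where 15.9% and 13.7% of all genes were. Mrps30, which sits in the large subunit, is 1 of the 7 and 1 of the 2. The 26 that sit in the small subunit gave 6 lower and 1 higher in edgeR. Mrps2, the counterpart of a bacterial small-subunit protein, had 65.3 and 57.9 RPM in the Crat hairpin libraries, against 36.5 and 42.4 in the controls. The groups were apart, with a log2 fold change of 0.63 ± 0.20 (limma adjusted p = 0.0507; edgeR adjusted p = 0.0439). Mrps2 overlaps Pierce1 in RefSeq, and reads of the 2 genes cannot be told apart if the counting ignored strand. Mrps12, a protein of the decoding centre, had 18.7 and 21.6 RPM with the Crat hairpin and 20.1 and 15.9 RPM with the control hairpin, overlapping. Of the small-subunit members past the edgeR threshold, Mrps25 had 24.9 and 27.1 RPM with the Crat hairpin and 46.6 and 31.0 RPM with the control hairpin (edgeR adjusted p = 1.8e-04, limma 0.206) and Mrps9 had 34.2 and 25.3 RPM with the Crat hairpin and 42.1 and 40.9 RPM with the control hairpin (edgeR adjusted p = 9.15e-04, limma 0.204).

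Of the members with the largest fold changes, 4 more of the small subunit rested on few reads in Crat hairpin replicate 1. Mrps10 had 6.22 and 8.63 RPM in the Crat hairpin libraries, from 2 reads in replicate 1, against 14.7 and 12.9 in the controls. Its groups were apart, with a log2 fold change of -0.82 ± 0.40 (limma adjusted p = 0.198; edgeR adjusted p = 0.0284). Mrps31 had 9.33 and 25.3 RPM with the Crat hairpin and 26.9 and 27.2 RPM with the control hairpin, with Crat hairpin replicate 1 alone far below. Mrps14, whose bacterial counterpart binds the ribosomal RNA of the small subunit, had 12.4 and 24.6 RPM with the Crat hairpin and 34.7 and 24.2 RPM with the control hairpin, overlapping (limma adjusted p = 0.229; edgeR adjusted p = 0.00757). Mrps28 had 3.11 and 11.1 RPM with the Crat hairpin and 13.3 and 7.57 RPM with the control hairpin, overlapping, and 1 read in Crat hairpin replicate 1.

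The Mrps18 family has 3 members, and their products take different places, Mrps18c in the bacterial-type position of the small subunit, Mrps18b elsewhere in it and Mrps18a in the large subunit. Mrps18c had 6.22 and 14.2 RPM in the Crat hairpin libraries, against 16.4 and 15.1 in the controls. Mrps18b had 56.0 and 40.7 RPM with the Crat hairpin and 40.7 and 43.1 RPM with the control hairpin. For Mrps18a the values were 18.7 and 44.4 RPM with the Crat hairpin and 35.3 and 45.4 RPM with the control hairpin. In each of the 3 the Crat hairpin replicates differed from each other by more than the controls did, and the log2 fold changes of -0.68, 0.18 and -0.46 did not pass (limma adjusted p = 0.325, 0.610 and 0.431). Mrps30, also of the large subunit despite its name, had 15.6 and 26.5 RPM with the Crat hairpin and 33.2 and 40.9 RPM with the control hairpin, apart, with a log2 fold change of -0.83 ± 0.30 (limma adjusted p = 0.0931; edgeR adjusted p = 0.0142). Mrps36, now assigned to the 2-oxoglutarate dehydrogenase complex and not to the ribosome, had 34.2 and 30.8 RPM with the Crat hairpin and 35.6 and 30.3 RPM with the control hairpin.

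Mrps17, a ribosomal RNA binding protein, had the largest fitted log2 fold change and the fewest reads. It stood at 24.9 and 1.23 RPM in the Crat hairpin libraries, from 8 and 2 reads, against 1.48 and 0 in the controls, from 35 and 0 reads. Crat hairpin replicate 1 alone was high, and the fitted log2 fold change of 2.27 ± 1.11 did not pass (limma adjusted p = 0.198). RefSeq lists 1 pseudogene of Mrps17.

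Many of these genes lie back to back with another gene. RefSeq promoter windows of 300 bases (GRCr8) were found for 54 of the 69 members, and the windows of 15 overlapped that of a gene on the opposite strand. Mrpl46, of the large subunit, and Mrps11, of the small subunit, share 267 bases of their windows. Mrpl46 had 31.1 and 22.8 RPM in the Crat hairpin libraries, against 16.2 and 13.6 in the controls. Mrps11 had 21.8 and 22.2 RPM with the Crat hairpin and 18.2 and 15.9 RPM with the control hairpin. In both genes each Crat hairpin library was above each control, with log2 fold changes of 0.80 ± 0.31 and 0.35 ± 0.29 (limma adjusted p = 0.103 and 0.451). The Mrpl46 window (GRCr8 chr1:142116981-142117280, minus strand) is shown because its first 267 bases are shared, on the other strand, with the Mrps11 window. The match to AAGATGGCG, in capitals, lies after those bases and is not in the Mrps11 window.
Mrpl46: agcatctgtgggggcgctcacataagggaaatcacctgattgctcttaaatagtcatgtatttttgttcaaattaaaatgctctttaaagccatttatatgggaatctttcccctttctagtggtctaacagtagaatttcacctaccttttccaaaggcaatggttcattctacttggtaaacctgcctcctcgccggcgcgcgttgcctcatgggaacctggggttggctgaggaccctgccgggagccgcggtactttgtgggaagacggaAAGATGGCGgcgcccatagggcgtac

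Opposite-strand partners did not always go with the member. Mrpl30 shares 293 bases with Mitd1, which encodes a protein of membrane abscission. Mitd1 had 65.3 and 56.1 RPM in the Crat hairpin libraries, against 10.4 and 6.81 in the controls, a log2 fold change of 2.70 ± 0.30 (limma adjusted p = 1.9e-04). Mrpl30 had 6.22 and 22.2 RPM with the Crat hairpin and 20.7 and 15.9 RPM with the control hairpin, overlapping, with a log2 fold change of -0.57 ± 0.51 (limma adjusted p = 0.494). Crat hairpin replicate 1 held 2 reads of Mrpl30, and RefSeq lists 9 pseudogenes of it, so its value is uncertain. Mrpl47 shares 257 bases with Ndufb5, a complex I subunit. In RefSeq the 2 genes themselves also overlap, so reads there cannot be told apart if the counting ignored strand. Ndufb5 had 109 and 121 RPM in the Crat hairpin libraries, against 168 and 173 in the controls. Its log2 fold change was -0.57 ± 0.12 (limma adjusted p = 0.0102), beside 0.15 ± 0.23 for Mrpl47. These were the 2 pairs of 13 with a partner past the threshold, where 6.36% of all genes tested were lower and 12.6% higher. They were chosen after their values were seen. Mrpl49 shares 285 bases with Fau, which encodes a cytosolic ribosomal protein. Mrpl49 had 59.1 and 38.8 RPM with the Crat hairpin and 32.8 and 29.5 RPM with the control hairpin. Fau had 202 and 182 RPM with the Crat hairpin and 215 and 226 RPM with the control hairpin. The difference within a pair was not tested. The Mrpl30 window (GRCr8 chr9:47620977-47621276, plus strand) is shown as the stretch shared with Mitd1, with matches to the NRF-1 core and to CCGGAAG, the core of the ETS motif bound by GABP, in capitals, both lying on the reverse strand and so printed as reverse complements.
Mrpl30: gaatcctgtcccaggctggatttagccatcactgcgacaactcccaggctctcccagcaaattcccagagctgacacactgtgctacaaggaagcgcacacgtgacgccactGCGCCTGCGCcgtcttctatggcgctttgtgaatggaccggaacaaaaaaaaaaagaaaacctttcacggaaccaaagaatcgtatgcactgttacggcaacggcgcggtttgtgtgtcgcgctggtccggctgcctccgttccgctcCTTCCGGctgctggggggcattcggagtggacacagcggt

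**Figure D4:**
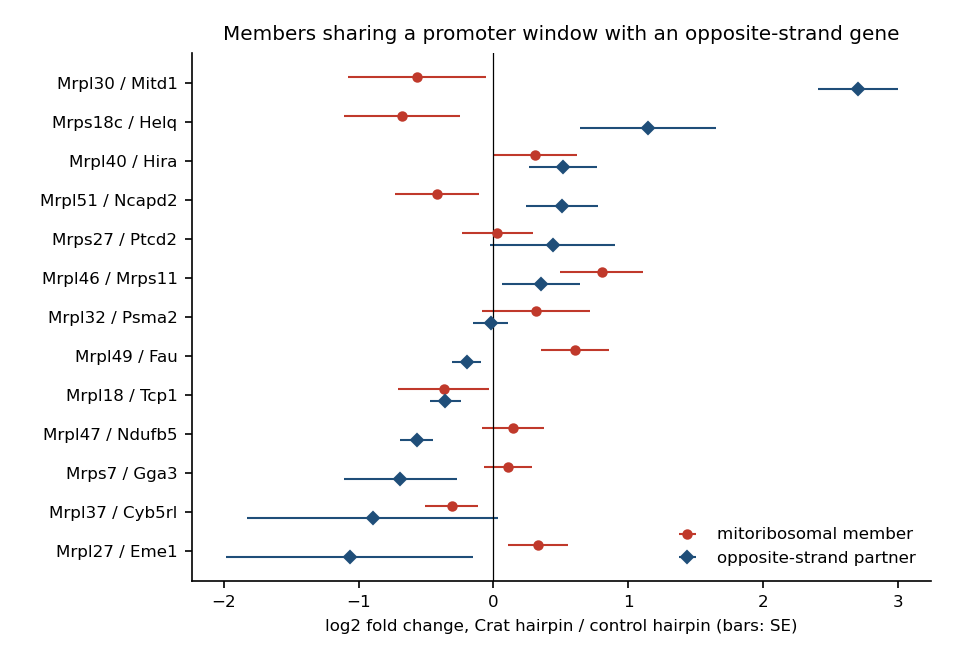
Log2 fold change, Crat hairpin over control hairpin, of 13 mitoribosomal members (red circles) and of the gene on the opposite strand whose promoter window overlaps theirs (blue diamonds), with SE bars. Mitd1 at 2.70 and Mrpl30 at -0.57 lie farthest apart, while Mrpl46 and Mrps11 lie on the same side of 0.

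Motif letters for factors known to act on nuclear genes of mitochondrial proteins were counted on both strands of the windows. The NRF-1 core, whose reverse complement can match the same bases, was in 8 of 54 members' windows, or 14.8%, beside 9.97% of the windows of all symbols in the deposited table. The ETS letters CCGGAAG were in 18, or 33.3%, beside 17.6%, and the YY1 letters AAGATGGCG in 8, or 14.8%, beside 3.66%. Of all 27457 RefSeq genes with a window, 4.82%, 9.63% and 1.99% held them. These are matches of letters and not sites of binding. At least 1 of the 3 motifs was in 27 of the 54 members' windows, or 50%, beside 27.7% for the symbols in the deposited table. None was in the windows of Mrps2, Mrpl2 or Mrps11, while that of Mrpl46 held the YY1 letters. A link between motifs and fold changes was not tested.

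Beyond the ribosomal proteins named Mrpl and Mrps, few genes of mitochondrial translation passed in limma. Of 5 mitoribosomal proteins under other names none passed in limma (1 at an unadjusted p under 0.05, beside 4098 of the 12949 genes tested). In edgeR 1 was higher, beside 13.7% of all genes. Their median log2 fold change was 0.34, with 2 of the 5 negative. The median was 0.14 under TMM scaling, 0.007 in edgeR, -0.005 in voom and 0.10 in DESeq2. Dap3, a GTP-binding protein of the small subunit, had 77.8 and 60.4 RPM in the Crat hairpin libraries, against 55.5 and 52.2 in the controls. Ptcd3, an RNA-binding protein of the small subunit, had 59.1 and 76.4 RPM with the Crat hairpin and 59.0 and 44.6 RPM with the control hairpin. Aurkaip1, the gene higher in edgeR, shares its identifier with Ccnl2, and its value cannot be assigned to either. Among 16 translation factors and helpers 1 was higher and 0 lower in limma, beside 12.6% and 6.36% of all genes tested, whereas edgeR gave 0 higher and 2 lower, beside 13.7% and 15.9%, and voom 0 higher and 3 lower, beside 16.5% and 15.2%. The gene higher in limma was Oxa1l, which inserts newly made chains into the inner membrane, at 146 and 120 RPM in the Crat hairpin libraries, against 97.1 and 87.8 in the controls, a log2 fold change of 0.51 ± 0.15 (limma adjusted p = 0.0395). It did not pass under TMM or median-of-ratios scaling, without a control library, in voom, edgeR or DESeq2. The genes lower in edgeR were Guf1, a GTPase of mitochondrial translation, and Tufm, the elongation factor that brings aminoacyl-tRNA to the ribosome, and voom added Slirp, a partner of Lrpprc, all named after their values were seen. Guf1 had 31.1 and 10.5 RPM with the Crat hairpin and 30.0 and 16.6 RPM with the control hairpin, overlapping, with log2 fold changes of -0.29 in limma (adjusted p = 0.726) and -1.20 in edgeR (adjusted p = 2.08e-04). Tufm had 103 and 91.2 RPM with the Crat hairpin and 102 and 121 RPM with the control hairpin, also overlapping (limma adjusted p = 0.404; edgeR adjusted p = 0.0219). Letm1, of the inner membrane, and Lrpprc, a stabiliser of mitochondrial messages, had log2 fold changes of 0.13 ± 0.12 and 0.11 ± 0.11.

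In the assembly list 1 of 25 genes rose and 0 fell in limma, beside 12.6% and 6.36% of all genes tested, with a median of 0.16, which was -0.03 under TMM scaling. Dhx30, an RNA helicase of mitochondrial RNA granules, had 99.5 and 88.1 RPM in the Crat hairpin libraries, against 66.8 and 61.3 in the controls, a log2 fold change of 0.54 ± 0.16 (limma adjusted p = 0.0403). Under TMM and median-of-ratios scaling, and in edgeR and DESeq2, neither Dhx30 nor any other gene of this list passed, and Dhx30 did not pass without a control library. Trub2, a pseudouridine synthase, had 37.3 and 50.5 RPM with the Crat hairpin and 35.8 and 44.6 RPM with the control hairpin. The assembly genes summed to a ratio of 1.29 between group means, Crat hairpin over control.

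All 13 mitochondrially encoded protein genes fell in limma, edgeR and DESeq2, with limma log2 fold changes from -2.45 for ND4L to -0.89 for COX1 and a median of -1.69. ND4L, a complex I subunit, had 159 and 174 RPM in the Crat hairpin libraries, against 931 and 892 in the controls. CYTB, the cytochrome b of complex III, had 1928 and 1824 RPM with the Crat hairpin and 9488 and 8938 RPM with the control hairpin. The complex I subunits ND4 and ND5 had log2 fold changes of -2.13 and -2.12. Cytosolic ribosomal proteins, the parts of the cell's other ribosome, fell in 13 of 63 cases and rose in 1 in limma, beside 6.36% and 12.6% of all genes tested, with a median of -0.17. Under TMM scaling 32 fell and 0 rose, beside 9.87% and 7.78% of all genes. The one higher gene as deposited was Rplp0, a stalk protein of the cytosolic ribosome, named after its value was seen. Rps28 fell by 0.53 ± 0.15 and Rpl12 by 0.46 ± 0.11 on the log2 scale (limma adjusted p = 0.0359 and 0.0177), and the rows of Rps29 and Rps27a, each sharing an identifier with another symbol, by 0.47 and 0.42. No test was made between the lists, and the cytosolic genes were counted from more reads.

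**Figure D5:**
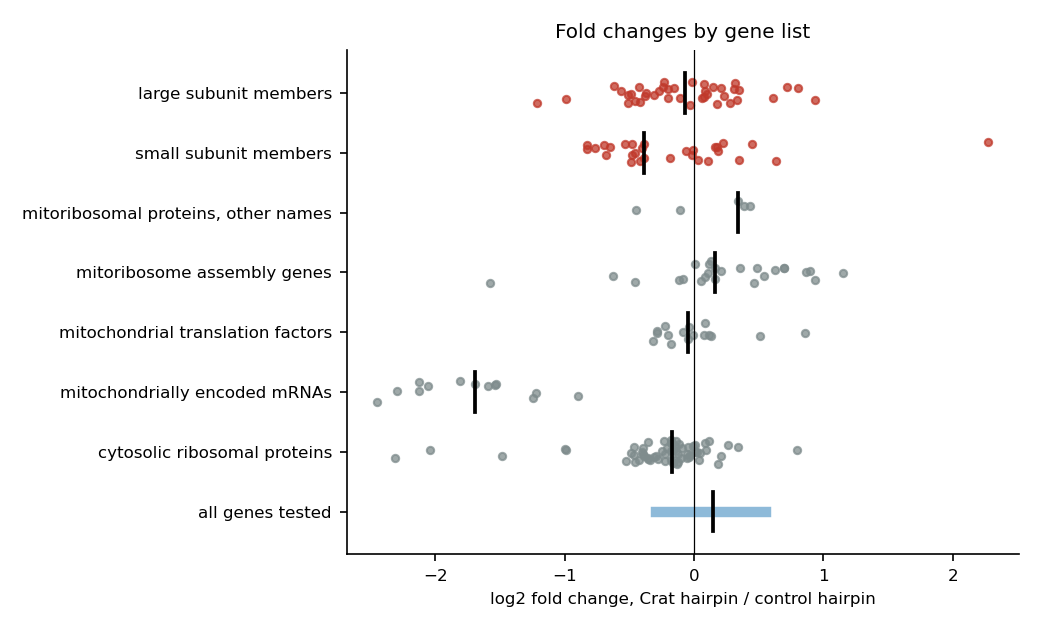
Log2 fold changes, Crat hairpin over control hairpin (limma), of the genes in each list, a point a gene, with the list's median as a black bar. For all 12949 genes tested the blue band is the middle 50% and the bar the median, 0.15. The 2 subunits, grouped by gene name, spread around 0 with medians of -0.07 and -0.39, while the 13 mitochondrially encoded genes lie between -2.45 and -0.89.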

How the data were processed

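RNA of 4 libraries was sequenced on an Illumina instrument, per the labels' protocols. Kallisto, DESeq2 and the rat build mRatBN7.2 are listed, without roles or tool versions, per the submitters' processing notes. The sources used here do not give strandedness or how genes were summed. The authors deposited a signal per gene and library headed TPM, per the file headers, and within a library all values are steps of 1 size (100% whole within 0.02 of a read), so the unit is RPM. The step gave back the reads. The deposited p-values and adjusted p-values were used as an alternative. The 14318 rows hold 14137 identifiers, each used once.

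Log2(value + 1) was fitted with limma 3.58.1 (R 4.3.3) with a variance trend on the 12949 identifiers with a mean of at least 1, and p-values were adjusted by Benjamini-Hochberg over all of them, with a threshold of 0.05. Fold changes on this scale understate changes of low genes. Alternatives used edgeR 4.0.16, DESeq2 1.42.0, voom, other pseudocounts, filters and scalings, a replicate block and each library left out. With 2 libraries against 2, the smallest p of an exact permutation test is 0.333. The fit was tested on simulated reads. RefSeq (GRCr8) gave promoters, pseudogenes and neighbours by symbol, with 68 of 69 members matched and promoters for 54. Named were Crat, members past the threshold, the 15 with the largest absolute change, the 6 with most reads, members of stated role and, in other lists, up to 4 past the threshold or up to 2 by mean. Mrps25, Mrps9, Mrps11, Mrpl30, Mitd1, Ndufb5, Fau, COX1, Guf1, Tufm, Slirp and Rplp0 were added after their values were seen. Members and lists were chosen with earlier results of these data known.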

Additional observations from a re-analysis of the deposited data

How the results depend on the processing

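Crat stayed lower and past the threshold in every alternative, and the count of lower mitochondrially encoded genes stayed within 1.5 times. The counts of members did not. As reported 1 member was lower (1 in the large and 0 in the small subunit) and 0 were higher, beside 6.36% and 12.6% of all genes. A pseudocount of 5 gave 2 lower and 1 higher (2 in the large subunit), beside 6.7% and 13.1%. No filter gave 0 lower (0), beside 5.16%. A mean of at least 10 gave 2 lower and 2 higher (2), beside 9.35% and 18.5%. TMM scaling gave 5 lower (4 large, 1 small subunit), beside 9.87% of all genes, with a median log2 fold change of -0.35. Median-of-ratios scaling gave 4 (3 and 1), beside 9.68%, with -0.34. Leaving the mitochondrially encoded mRNAs out of the total gave 2 (2 large), beside 7.6%, with -0.24. These shifts follow the scaling: the median of all genes was 0.15 as deposited, -0.04 under TMM and -0.03 under median-of-ratios scaling. Relative to that median the members' median was -0.30, and from -0.33 to -0.19 over the alternatives. No variance trend gave 0 lower (0 large), beside 0.61% of all genes. Voom gave 13 lower (7 large, 6 small) and 2 higher, beside 15.2% and 16.5%, with a median of -0.31. EdgeR gave 14 (7 and 7) and 2, beside 15.9% and 13.7%, with -0.29. DESeq2 gave 0 (0), beside 6.7% lower, with -0.27, and the deposited adjusted p-values 0 (0), beside 6.12% lower. Lower cytosolic ribosomal proteins, 13 as reported, numbered 32 under TMM, 32 under median-of-ratios scaling, 22 without the mitochondrially encoded mRNAs, 0 without a trend, 49 by voom, 47 by edgeR, 30 by DESeq2 and 30 by the deposited values. Lower translation factors, 0 as reported, numbered 3 by voom and 2 by edgeR. The counts of these 2 lists stand beside the shares of all genes lower given above for the same settings. Grouping the subunits by place in the ribosome, chosen after seeing the data, left 1 lower in the large and 0 in the small subunit. Why the tests differ was not tested.

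With each library left out in turn, lower members ranged from 0 to 19 and higher ones from 0 to 9, the median log2 fold change from -0.15 to -0.0088, lower large-subunit members from 0 to 9, lower small-subunit members from 0 to 10, lower proteins under other names from 0 to 1, lower translation factors from 0 to 1, lower assembly genes from 0 to 2 and lower cytosolic ribosomal proteins from 0 to 24. Where a group kept 1 library, its spread was taken from the other group. The shares of all genes lower and higher also varied over these fits, smallest without control replicate 1 and largest without Crat hairpin replicate 2. The ranges of counts therefore do not by themselves show that these lists are less stable than other genes. The median log2 fold change over all genes ran from 0.15 to 0.18 in the same fits. Deviations of the libraries numbered 1 in both groups correlated at 0.0061 over 12949 genes. With a single difference per group and few reads in Crat hairpin replicate 1, this value cannot tell whether libraries of the same number belong together. With the replicate block 1 member was lower and 0 were higher, beside 6.91% and 13.1% of all genes. For 48 single genes, 862 alternative values held 30 lost calls, 70 gained calls and no call of opposite sign. The fewest reads, in Crat hairpin replicate 1, limit every member's value.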
